A study of Homo sapiens with 6 samples.

Results

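The genes described here are 30 genes of cholesterol and fatty acid synthesis, chosen by a rule on their function that uses no values, although earlier results of these data were known at the choice, and they were found among the 60676 Ensembl genes of the deposited tables by matching identifiers to symbols. They comprised 7 genes of the mevalonate steps, 11 genes from squalene synthase (FDFT1) to cholesterol and 5 genes of sterol sensing. The others were the sterol carrier STARD4 and 6 genes of fatty acid synthesis, elongation and desaturation. All 30 were expressed above the filter on low values, which asks for a mean FPKM (fragments scaled for gene length and library total) of at least 1 in either group. RNA was sequenced from SK-N-BE, a human neuroblastoma line that takes on neuronal traits with retinoic acid. All libraries came from cells differentiated for 1.5 days in medium with 10 μM retinoic acid and little serum. The 3 si-SCR libraries were from cells given a scrambled small interfering RNA, and the 3 si-CyCoNP libraries were from cells given small interfering RNAs against CyCoNP, a cytoplasmic long noncoding RNA. The design is a transient knockdown in 1 tumour line, and nothing in the labels says whether the replicates were separate cultures, so the p-values measure the spread between these libraries, which may be technical.

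Cholesterol is built from acetyl-CoA by way of mevalonate, isoprenoid units and squalene, and the same acetyl-CoA feeds fatty acid synthesis. When sterols are scarce, SCAP escorts the SREBP transcription factors (genes SREBF1 and SREBF2) from the endoplasmic reticulum to the Golgi, where they are cut and released to activate these genes. When sterols are plentiful, the INSIG proteins hold SCAP back. Neurons in culture use this pathway for membranes, neurites and synapses, and SREBP-2 is best known for the sterol genes while SREBP-1 is best known for the fatty acid genes.

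Promoter windows that hold a searched motif are shown first, for SREBF2 and for 6 of the 7 genes that passed in every alternative setting, because SREBP proteins bind beside a CCAAT box, which the factor NF-Y recognises, and because a sterol regulatory element or an E-box in them can be seen directly. The windows below are at most 30 bases long, read from the RefSeq promoter set on GRCh38.p14, 5′ to 3′ on the strand of the gene. Further CCAAT boxes of HMGCS1 and ACACA are not printed. Capitals mark the core searched for the sterol regulatory element, TCACNCCAC. They likewise mark the CCAAT box, which reads ATTGG where it lies on the other strand, and the E-box, CACGTG.
SREBF2, chr22:41832962-41832991, plus strand, element core: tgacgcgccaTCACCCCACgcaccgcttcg
SREBF2, chr22:41832987-41833016, plus strand, CCAAT box: cttcgctcgcccATTGGctgagatgagcct
HMGCS1, chr5:43313550-43313579, minus strand, CCAAT box: agtttccttttgATTGGtagaagccggact
STARD4, chr5:111512679-111512708, minus strand, CCAAT box: atttatcggccaCCAATcagccctccacac
STARD4, chr5:111512648-111512677, minus strand, CCAAT box: ctcccgcgccagCCAATccgaacaagcgca
TM7SF2, chr11:65111786-65111815, plus strand, CCAAT box: ccccgagcgccgATTGGctggtgtgctggg
SC5D, chr11:121292703-121292732, plus strand, CCAAT box: cgccggtcgctgATTGGctggccgctccag
SC5D, chr11:121292628-121292657, plus strand, E-box: gcgcgcggcgccCACGTGaccgcggagagc
INSIG1, chr7:155297696-155297725, plus strand, CCAAT box: cgccggcctcccATTGGttgcggccgcctc
INSIG1, chr7:155297811-155297840, plus strand, E-box: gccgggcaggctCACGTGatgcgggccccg
ACACA, chr17:37359305-37359334, minus strand, CCAAT box: cgccgccctcccATTGGctgccgctgagcc

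Promoter windows were found for 26 of the 30 genes, in 35 windows that run from 250 bases before to 50 bases after an annotated start. CCAAT on either strand was in 62.9% of these windows, against 34.6% of all 35116 promoter windows. It was present for 3 of the 4 genes with a window that rose after the knockdown, for 7 of the 9 that fell and for 9 of the 13 others, so the box was common in every class. PMVK and FADS1, which fell, have a window with none of the 3 motifs. TCACNCCAC was in 1.13% of all windows and in 1 of the 26 genes, SREBF2. There the element core and the CCAAT box lie in the overlapping windows printed above. Only this string was searched, so its absence does not show that a promoter lacks a sterol regulatory element of another form. CACGTG was in 14.3% of the windows of these genes and in 7.26% of all windows, and the genes with it were INSIG1, SC5D, LSS and SCAP. A match is a description of the letters, and no binding was measured in these libraries.

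LINC02381, the gene of CyCoNP, checked the labels. Its counts were 274, 208 and 315 in si-SCR, against 20, 30 and 12 in si-CyCoNP. The groups were far apart, with a fall from 14.4 ± 1.31 to 1.10 ± 0.498 FPKM (mean ± SD, n = 3 each), which is 13.7-fold lower (log2 fold change -3.78, standard error or SE 0.190, adjusted p = 6.84e-14 in edgeR). Total counts ran from 3762009 to 4799407 per library and were of similar size in both groups. On the first principal component si-SCR replicate 3 lay at -20.95, nearer to the si-CyCoNP libraries (29.17 to 32.21) than the other si-SCR libraries (-34.77 and -35.46), and values without it are given wherever they change a call. The 30 genes took 0.527% to 0.633% of all counts in each library, with no separation of the groups. Of 8 markers of adrenergic neuroblastoma, 6 (75%) passed the edgeR test lower and 0 higher, against 14.2% of all tested genes in each direction. The summed level of the 8 markers was 2073 to 2510 FPKM in si-SCR, against 1339 to 1429 FPKM in si-CyCoNP. Summed markers of mesenchymal cells were 15.95 to 23.36 FPKM against 23.21 to 28.17 FPKM, with COL1A2 and PRRX1 at 0. Of these 7 markers 5 were tested, and 2 passed higher (40%) and 1 lower (20%), against the same 14.2% in each direction. Summed leukocyte markers stayed at or below 0.152 FPKM (CD3E at 0) and adipocyte and hepatocyte markers at or below 0.496 FPKM (ADIPOQ, FABP4 and ALB at 0), and none of these was tested. The part of the adrenergic and mesenchymal markers in the results below was not tested, and in such bulk samples fewer cells of a type and less RNA per cell cannot be told apart.

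Genes of the pathway moved in both directions after the knockdown. In the edgeR quasi-likelihood fit over 13966 genes, 6 of the 30 genes rose (20%) and 9 fell (30%) at an adjusted p under 0.05, against 14.2% of all tested genes higher and 14.2% lower. Together 15 of 30 (50%) passed, against 28.4% of all tested genes in either direction. These shares were not matched for expression level, and 23 of the 30 genes had a mean of 10 FPKM or more in si-SCR. Their median log2 fold change was -0.02, against 0.01 for all tested genes, and 14 of the estimates were positive and 16 negative. TM7SF2 alone was past a log2 fold change of 1 in size, where 5.26% of all tested genes were called beyond 1 in either direction (2.28% above 1 and 2.98% below -1). The genes that rose were INSIG1, ACACA, SREBF1, MVD, FASN and FDFT1, and those that fell were TM7SF2, SC5D, PMVK, STARD4, HMGCS1, FADS1, EBP, FADS2 and SREBF2. FPKM did not overlap between the groups for 17 of the 30 (56.7%), against 40.3% of all tested genes.

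**Figure D1:**
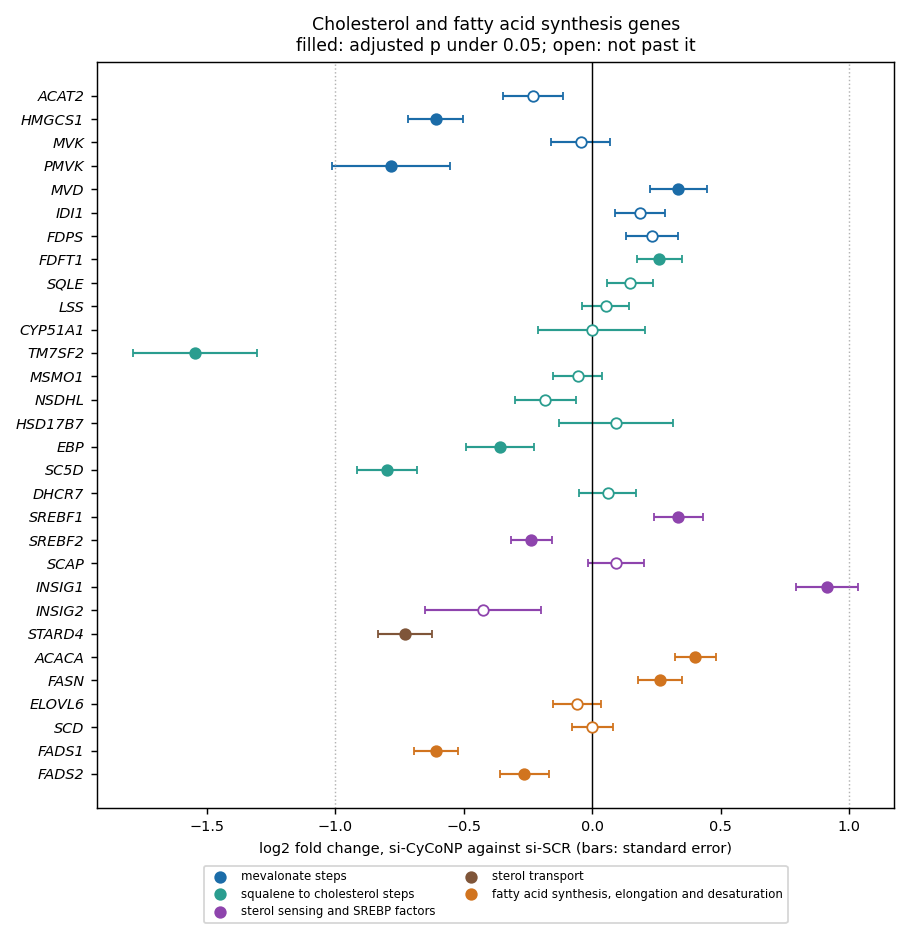
Log2 fold change of each of the 30 genes, si-CyCoNP against si-SCR (n = 3 each), on the x axis, with bars for the standard error, colours for the role of the gene and filled circles for an adjusted p under 0.05. The 6 filled circles right of 0 and the 9 left of it are spread over the roles, and TM7SF2 at -1.55 is the farthest from 0.

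FPKM were scaled to the library total alone, while the fit also corrected for library composition by trimmed mean of M-values (TMM) factors, so the scales can order close libraries differently. On TMM-scaled counts 14 of the 30 genes (46.7%) did not overlap, against 40.2% of all tested genes. FASN overlapped and SREBF2 did not on that scale, where FPKM gave the opposite for both, and FADS2 overlapped on both scales. IDI1, SQLE and SCAP, which did not pass the test, overlapped on that scale but not in FPKM. With library totals alone in the same test, 8 of the 30 genes were higher and 6 lower, and over all genes 2465 were higher and 1574 lower, in place of 1982 and 1990.

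The mevalonate steps gave 1 gene higher, 2 lower and 4 not past the test, with a median log2 fold change of -0.05. The share past the test was 42.9%, against 28.4% of all tested genes. HMGCS1 (ENSG00000112972, chr5:43287470-43313512, minus strand), which makes HMG-CoA at the entry to the pathway, stood at 61.7, 51.5 and 42.2 FPKM in si-SCR, against 32.98, 39.8 and 34.3 FPKM in si-CyCoNP. Every si-CyCoNP library was below every si-SCR library, although si-SCR replicate 3 came close. The level fell from 51.8 ± 9.78 to 35.7 ± 3.60 FPKM, a log2 fold change of -0.61 (SE 0.108, adjusted p = 8.01e-05 in edgeR).

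PMVK (ENSG00000163344, chr1:154924740-154936719, minus strand), the kinase that adds the second phosphate to mevalonate, was at 9.76, 16.4 and 14.6 FPKM in si-SCR, against 8.94, 8.22 and 7.46 FPKM in si-CyCoNP. The si-SCR libraries were uneven, and replicate 1 lay just above the si-CyCoNP libraries. The log2 fold change was -0.78 (SE 0.229, adjusted p = 0.0108 in edgeR), and without si-SCR replicate 2 it was -0.63 and no longer passed (adjusted p = 0.0733). MVD, the next enzyme, which decarboxylates the product, went the other way, from 11.8, 12.8 and 10.5 FPKM to 16.2, 15.9 and 14.2 FPKM. Its groups did not overlap, and it rose by 26.1% (log2 fold change 0.33, SE 0.110, adjusted p = 0.0234 in edgeR). The MVD call was lost without si-SCR replicate 3 (0.24, adjusted p = 0.120), without si-CyCoNP replicate 1 (adjusted p = 0.0992), without si-CyCoNP replicate 2 (adjusted p = 0.0753) and with DESeq2 (adjusted p = 0.0678).

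The other 4 genes of these steps did not pass. ACAT2, a cytosolic acetyl-CoA acetyltransferase that condenses acetyl-CoA, had a log2 fold change of -0.23 (adjusted p = 0.153), and without si-SCR replicate 3 it was -0.40 and passed (adjusted p = 0.000203). MVK, the first mevalonate kinase, was at 8.71 and 8.86 FPKM (log2 fold change -0.05, 95% interval -0.28 to 0.19). IDI1, which isomerises the isoprenoid unit, and FDPS, which joins such units into farnesyl diphosphate, were 0.18 and 0.23 on the log2 scale (edgeR adjusted p = 0.172 and 0.0899). Both had FPKM groups that did not overlap, but on TMM-scaled counts the groups of IDI1 did overlap. IDI1 passed without si-SCR replicate 1 (adjusted p = 0.0277), and FDPS passed without si-SCR replicate 1 (0.0156) or si-SCR replicate 2 (0.0469). Without si-SCR replicate 3 the estimates were smaller, at 0.11 for IDI1 (adjusted p = 0.449) and 0.084 for FDPS (adjusted p = 0.526). FDPS has 8 annotated pseudogenes and IDI1 has 3, so reads shared with these copies are missing from the counts.

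From squalene synthase to cholesterol, 1 of 11 genes rose, 3 fell and 7 did not pass, with a median of less than 0.01 in size. The 1 that rose makes squalene, and the 3 that fell act after it. That was 36.4% past the test, against 28.4% of all tested genes. FDFT1, squalene synthase, which commits farnesyl diphosphate to sterols, was at 41.8, 33.7 and 37.9 FPKM in si-SCR, against 45.9, 50.3 and 46.4 FPKM in si-CyCoNP. The groups did not overlap, and the log2 fold change was 0.26 (SE 0.088, adjusted p = 0.0266 in edgeR). It did not pass without si-SCR replicate 2 (adjusted p = 0.169), si-CyCoNP replicate 2 (0.121) or si-CyCoNP replicate 3 (0.0555). SQLE, the squalene epoxidase that follows, had a log2 fold change of 0.15 and did not pass (adjusted p = 0.238).

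TM7SF2 (ENSG00000149809, chr11:65111845-65116384, plus strand) encodes a sterol reductase that acts just after the lanosterol demethylase, and it showed the largest change in size of the 30 genes. Its FPKM were 4.55, 5.50 and 3.90 in si-SCR, against 1.82, 1.92 and 1.19 in si-CyCoNP, on counts of 67, 71 and 64 against 30, 28 and 17. No si-CyCoNP library came near the si-SCR libraries. The level was 2.92-fold lower (log2 fold change -1.55, SE 0.240, adjusted p = 1.44e-05 in edgeR), and the call held in all 14 alternative settings. TM7SF2 was also among the less expressed of the 30 genes, and it shares exon sequence on its strand with VPS51, a trafficking gene, which fell from 10.9 ± 1.13 to 8.83 ± 0.897 FPKM (log2 fold change -0.36, edgeR adjusted p = 0.0246). LBR, which carries the same reductase activity in the nuclear envelope, did not pass and was more abundant, at 31.7 ± 4.76 and 35.3 ± 1.35 FPKM (log2 fold change 0.09, 95% interval -0.10 to 0.28, edgeR adjusted p = 0.530).

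SC5D (ENSG00000109929, chr11:121292681-121313410, plus strand), the desaturase near the end of the route, was at 13.7, 10.7 and 9.44 FPKM in si-SCR, against 6.38, 6.88 and 7.15 FPKM in si-CyCoNP. The si-CyCoNP libraries were tightly grouped below the whole si-SCR range. It fell from 11.3 ± 2.16 to 6.80 ± 0.389 FPKM, a log2 fold change of -0.80 (SE 0.118, adjusted p = 6.83e-06 in edgeR). EBP, the sterol isomerase that precedes SC5D, shares exon sequence on its strand with ENSG00000286268. It was at 20.5, 20.9 and 18.7 FPKM in si-SCR, against 16.7, 15.3 and 16.9 FPKM in si-CyCoNP. Its groups did not overlap, and the log2 fold change was -0.36 (SE 0.132, adjusted p = 0.0418 in edgeR). That call was near the threshold and was lost in 8 of the 14 alternatives, among them DESeq2 (adjusted p = 0.108). It was also lost on leaving out si-SCR replicate 1 (0.121), si-SCR replicate 2 (0.131), si-CyCoNP replicate 1 (0.0766), si-CyCoNP replicate 2 (0.143) or si-CyCoNP replicate 3 (0.0640).

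Several enzymes between these points showed no difference beyond their error. LSS, which closes the rings of lanosterol, had an estimate of 0.05 on the log2 scale, with a 95% interval from -0.14 to 0.24. CYP51A1, the lanosterol demethylase, was at 3.92 ± 0.834 and 4.14 ± 0.878 FPKM, with a wide interval of -0.43 to 0.43. MSMO1 and NSDHL, which remove methyl groups, had log2 fold changes of -0.06 and -0.18, and HSD17B7, the ketosteroid reductase of the same steps, had 0.09 with an interval of -0.36 to 0.55. DHCR7, which makes cholesterol in the last step of one branch, had 0.06 and an interval of -0.17 to 0.29. CYP51A1 and HSD17B7 were low and have annotated pseudogenes, 3 and 2, so their values are less certain. CYP51A1 also shares exon sequence on its strand with ENSG00000285772. None of these genes passed in edgeR, and each of their intervals includes 0.

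**Figure D2:**
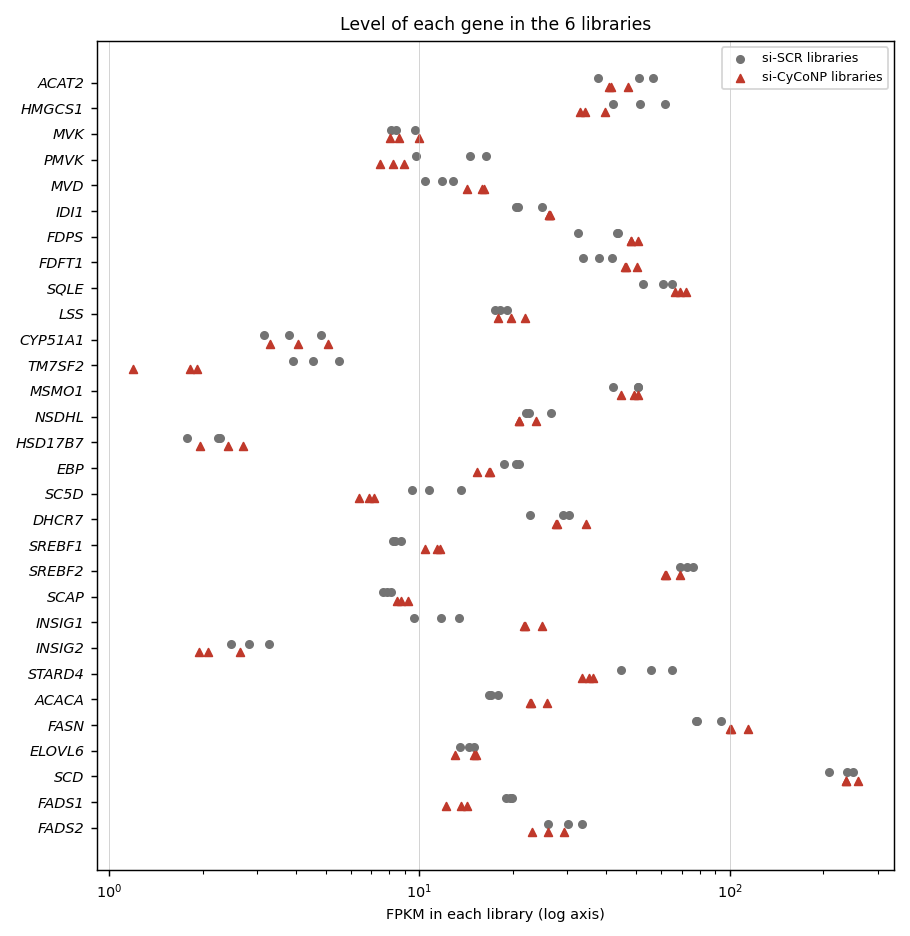
FPKM of each of the 30 genes (x axis, log scale) in the 6 libraries, with grey circles for si-SCR and red triangles for si-CyCoNP. Levels run from HSD17B7 at about 2.10 FPKM to SCD at about 233 FPKM in si-SCR, and the triangles lie wholly left of the circles for TM7SF2, SC5D, STARD4, FADS1, HMGCS1, PMVK and EBP.

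Among the sterol sensing genes, 2 of 5 rose and 1 fell (60% past the test, against 28.4% of all tested genes). INSIG1 (ENSG00000186480, chr7:155297776-155310235, plus strand), which retains SCAP when sterols are plentiful and is itself a well-known SREBP target, was at 11.7, 13.4 and 9.62 FPKM in si-SCR, against 21.9, 24.8 and 21.7 FPKM in si-CyCoNP. The lowest si-CyCoNP library was above the highest si-SCR library by a wide margin. INSIG1 rose by 88.5% (log2 fold change 0.91, SE 0.120, adjusted p = 1.22e-06 in edgeR), the largest rise of the 30 genes, and it passed in all 14 alternatives. INSIG2, its relative that does not depend on SREBP in the same way, was low, at 2.86 ± 0.404 and 2.23 ± 0.363 FPKM, and did not pass (log2 fold change -0.42, 95% interval -0.89 to 0.04, edgeR adjusted p = 0.177).

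The factors themselves moved in opposite directions. SREBF1 was at 8.22, 8.35 and 8.73 FPKM in si-SCR, against 11.7, 11.4 and 10.4 FPKM in si-CyCoNP. The groups did not overlap, and the si-SCR libraries were almost equal. It rose by 26.2% (log2 fold change 0.34, SE 0.096, adjusted p = 0.00928 in edgeR), and the call was lost only without si-CyCoNP replicate 1 (adjusted p = 0.0567). SREBF2 was much higher in level, at 76.2, 72.8 and 69.0 FPKM in si-SCR, against 62.1, 69.5 and 62.4 FPKM in si-CyCoNP. These values overlapped, since si-CyCoNP replicate 2 was above si-SCR replicate 3. SREBF2 fell by 15.2% (log2 fold change -0.24, SE 0.079, adjusted p = 0.0248 in edgeR). The SREBF2 call was lost without si-SCR replicate 1 (adjusted p = 0.108), si-SCR replicate 2 (0.0640), si-CyCoNP replicate 1 (0.117) or si-CyCoNP replicate 3 (0.0926), and with library totals alone (0.107). SCAP, the escort, did not pass, at 7.86 ± 0.250 and 8.79 ± 0.361 FPKM (log2 fold change 0.09, 95% interval -0.13 to 0.32).

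STARD4 (ENSG00000164211, chr5:111496033-111512590, minus strand), a soluble carrier that moves cholesterol between membranes, was at 65.1, 55.7 and 44.6 FPKM in si-SCR, against 36.2, 35.1 and 33.4 FPKM in si-CyCoNP. All si-CyCoNP libraries were below the lowest si-SCR library, and the si-SCR libraries were the more spread. It fell from 55.1 ± 10.3 to 34.9 ± 1.40 FPKM (log2 fold change -0.73, SE 0.105, adjusted p = 5.01e-06 in edgeR).

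**Figure D3:**
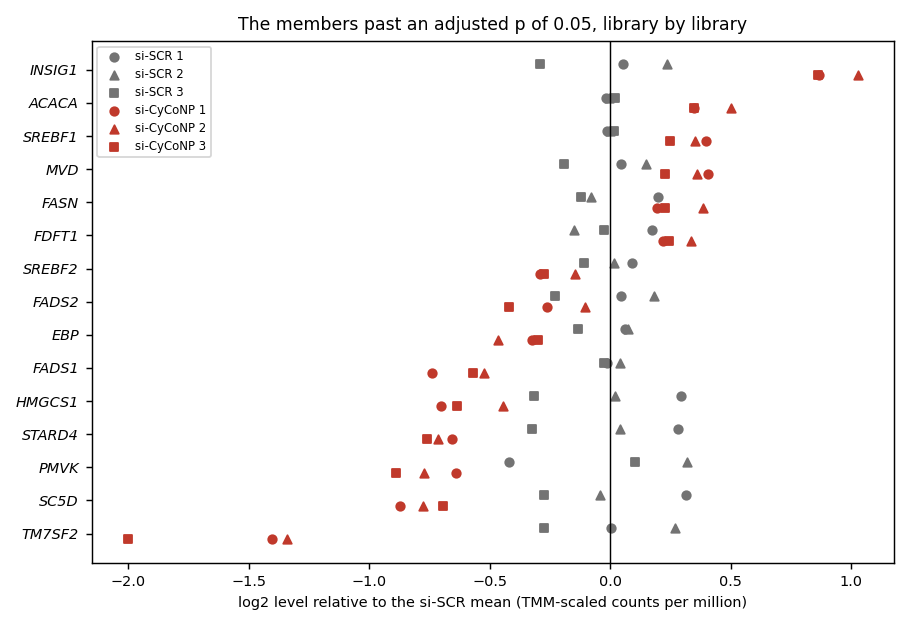
Log2 level of the 15 genes that passed the test in each library, from TMM-scaled counts and relative to the si-SCR mean (0 on the x axis), with grey for si-SCR, red for si-CyCoNP and a marker shape per replicate number. si-SCR replicate 3 (grey squares) lies toward the si-CyCoNP libraries for HMGCS1, STARD4, SC5D and TM7SF2, which fell. For INSIG1, MVD and FASN, which rose, it lies away from them (-0.29, -0.19 and -0.12). For FDFT1, SREBF1 and ACACA, which also rose, it lies near 0. The groups overlap for FASN and FADS2.

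In fatty acid synthesis the early enzymes rose and the desaturases of long polyunsaturated chains fell, 2 genes in each direction of 6. The share past the test was 66.7%, against 28.4% of all tested genes. ACACA (ENSG00000278540, chr17:37084992-37406836, minus strand), which makes malonyl-CoA in the committed step, was at 16.8, 17.0 and 17.9 FPKM in si-SCR, against 23.0, 25.8 and 22.7 FPKM in si-CyCoNP. The groups were well apart. It rose by 32.0% (log2 fold change 0.40, SE 0.080, adjusted p = 0.000337 in edgeR). FASN, the synthase that uses malonyl-CoA to build palmitate, was at 94.1, 78.2 and 78.4 FPKM in si-SCR, against 99.99, 114.9 and 101.2 FPKM in si-CyCoNP. si-SCR replicate 1 came close to the si-CyCoNP libraries, and the log2 fold change was 0.26 (SE 0.085, adjusted p = 0.0199 in edgeR). The FASN call was lost without si-SCR replicate 2 (adjusted p = 0.0833) or si-CyCoNP replicate 2 (0.129).

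FADS1 (ENSG00000149485, chr11:61799627-61829318, minus strand), a front-end desaturase used to make arachidonic and eicosapentaenoic acid, was at 19.0, 19.8 and 19.5 FPKM in si-SCR, against 12.2, 14.3 and 13.6 FPKM in si-CyCoNP. Both groups were tight and apart. It fell from 19.4 ± 0.441 to 13.4 ± 1.06 FPKM (log2 fold change -0.61, SE 0.086, adjusted p = 3.60e-06 in edgeR). FADS2, the desaturase that acts before it, was at 30.2, 33.5 and 26.0 FPKM in si-SCR, against 26.0, 29.3 and 23.1 FPKM in si-CyCoNP. These values overlapped, and the log2 fold change was -0.26 (SE 0.096, adjusted p = 0.0406 in edgeR). The FADS2 call was lost in 9 of 14 alternatives, among them DESeq2 (0.0641) and leaving out si-SCR replicate 1 (0.0644), si-SCR replicate 2 (0.258), si-CyCoNP replicate 1 (0.0914) or si-CyCoNP replicate 3 (0.207). FADS1 and FADS2 lie head to head with exons that overlap on opposite strands, and FADS2 also shares exon sequence on its own strand with FEN1, a nuclease gene that did not pass (log2 fold change 0.14, edgeR adjusted p = 0.349).

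SCD, the most abundant of the 30 genes, showed no difference beyond its error. This enzyme, which makes oleate and palmitoleate from saturated chains, was at 233 ± 21.1 FPKM in si-SCR, against 245 ± 12.9 FPKM in si-CyCoNP, with a 95% interval of the log2 fold change of -0.17 to 0.17. ELOVL6, which lengthens palmitate, was at 14.3 ± 0.713 and 14.4 ± 1.21 FPKM, with an interval of -0.25 to 0.13.

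Summed over a role, the levels of the groups lay close together. The mevalonate genes together were at 196 ± 26.8 FPKM in si-SCR, against 187 ± 6.16 FPKM in si-CyCoNP. The genes from squalene synthase to cholesterol were at 257 ± 21.1 and 268 ± 14.6 FPKM, and the sterol sensing genes at 103 ± 4.35 and 110 ± 6.31 FPKM. The fatty acid genes were at 398 ± 29.9 and 428 ± 26.9 FPKM. In each of these 4 roles the libraries of the groups overlapped, and no test was made on the sums. Abundant genes weigh most in a sum, such as SCD (233 FPKM in si-SCR) and SREBF2 (72.6 FPKM in si-SCR). Changes in less abundant genes, such as INSIG1 (11.6 to 22.8 FPKM), are therefore little seen in the sums.

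Ratios within a library do not depend on library scaling, and they set pairs of the 30 genes side by side. These pairs were chosen after their values were seen and carry no test. FPKM of SREBF1 relative to SREBF2 was 0.108, 0.115 and 0.126 in si-SCR, against 0.188, 0.164 and 0.167 in si-CyCoNP. The ratio of INSIG1 to INSIG2 was 4.74, 4.74 and 2.93 in si-SCR, against 8.31, 11.9 and 11.1 in si-CyCoNP. FDFT1 relative to HMGCS1 was 0.678, 0.654 and 0.898 in si-SCR, against 1.39, 1.26 and 1.35 in si-CyCoNP. Such a ratio also depends on the gene lengths used for FPKM, so its value does not show which transcript is more abundant. FASN relative to FADS1 was 4.96, 3.94 and 4.01 in si-SCR, against 8.19, 8.04 and 7.44 in si-CyCoNP. FADS1 relative to FADS2 was 0.627, 0.591 and 0.751 against 0.470, 0.488 and 0.588, so the groups were separate but nearly touched.

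**Figure D4:**
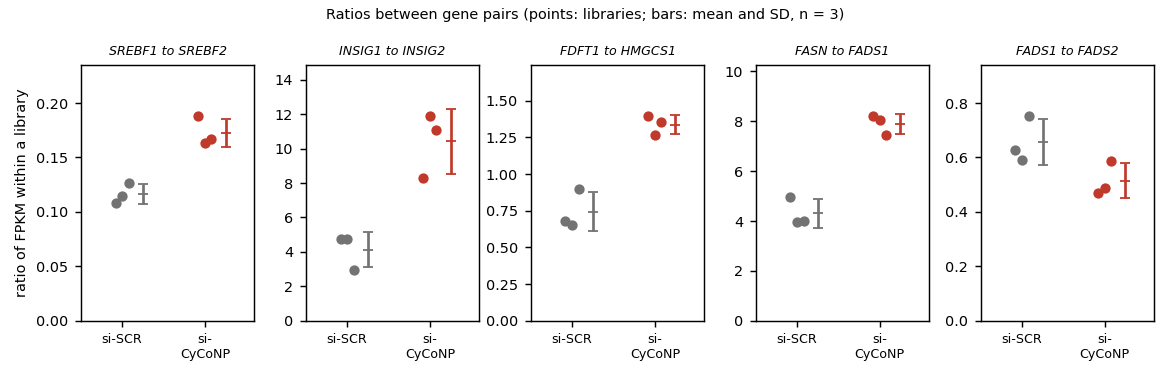
Ratio of FPKM within each library (y axis, no unit) for 5 gene pairs, with a point per library and bars for the mean and SD (n = 3). The groups are apart in all 5 panels, and the gap is small for FADS1 to FADS2 (0.591 in the lowest si-SCR library against 0.588 in the highest si-CyCoNP library).

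The genes around the pathway were read from 9 lists, which held 95 genes with 80 tested. Of these, 11 were higher and 17 lower (35% past the test, against 28.4% of all tested genes). Among 10 genes that process SREBP or degrade sterol-regulated proteins, 2 rose and 4 fell (60% past the test, against the same 28.4%). MBTPS2, the protease that makes the second cut in SREBP, fell by 0.61 on the log2 scale (7.62 ± 0.544 to 5.20 ± 0.239 FPKM, edgeR adjusted p = 0.000102). SPRING1, which matures the first protease, and PAQR3, which tethers SCAP to the Golgi, fell as well (log2 fold changes -0.41 and -0.44), while ERLIN2 and FAF2, which serve the degradation of endoplasmic reticulum proteins, rose (0.64 and 0.40).

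Of 6 accessory factors of sterol synthesis, 1 passed (16.7%, against 28.4% of all tested genes). This was FAXDC2, a relative of the sterol oxidases MSMO1 and SC5D. It was at 7.02, 10.4 and 5.34 FPKM in si-SCR, against 1.29, 0.747 and 0.870 FPKM in si-CyCoNP. The groups were far apart, 8.02-fold lower after the knockdown (log2 fold change -3.00, SE 0.228, adjusted p = 1.17e-10 in edgeR), a larger change than that of any of the 30 genes. In the other branches of isoprenoid synthesis 3 of 12 rose and 0 fell (25% past the test, against 28.4% of all tested genes). They were NUS1, a subunit of the dolichol-making prenyltransferase (0.62), ICMT, which methylates prenylated proteins (0.57), and RABGGTB, a subunit of the Rab prenyltransferase (0.32).

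Supply of acetyl-CoA and malonyl-CoA gave 1 gene higher and 1 lower of 8 tested (25%, against 28.4% of all tested genes). ME1, malic enzyme, a source of NADPH, rose from 12.4 ± 0.590 to 20.8 ± 1.13 FPKM (log2 fold change 0.68, edgeR adjusted p = 2.24e-05), and SLC25A1, the mitochondrial citrate carrier, fell (-0.42). Of 10 other elongation and desaturation enzymes 1 rose and 4 fell (50% past the test, against 28.4% of all tested genes). SCD5, the brain relative of SCD, rose at a low level from 1.62 ± 0.265 to 3.19 ± 0.221 FPKM (log2 fold change 0.90, edgeR adjusted p = 0.00332). HSD17B12 and HACD3, enzymes of the elongation cycle, and ELOVL4, which makes very long chains, fell (-0.52, -0.26 and -0.47).

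**Figure D5:**
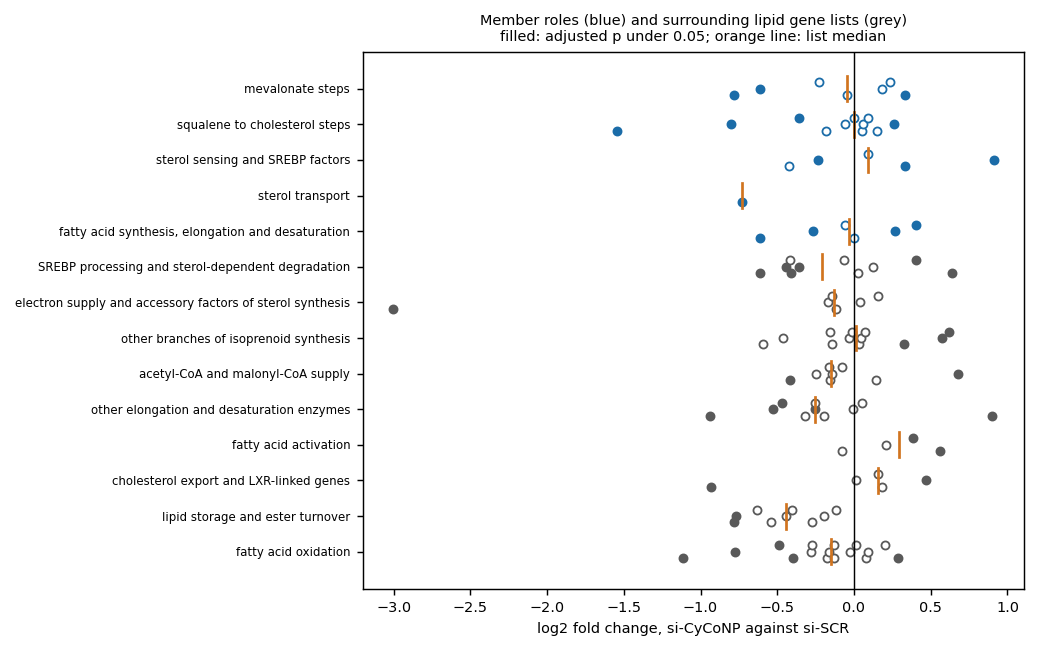
Log2 fold change (x axis) of every tested gene in the 5 roles of the 30 genes (blue) and in the 9 surrounding lists (grey), with filled circles for an adjusted p under 0.05 and an orange line at each median. Genes past the test lie on both sides of 0 in most lists, FAXDC2 lies at -3.00, and all 9 genes of lipid storage lie left of 0.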

How the data were processed

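Total RNA was sequenced by the authors from ribosome-depleted, stranded libraries. Per the submitters' processing notes and the study's methods, reads were trimmed with Trimmomatic 0.39 and Cutadapt 3.2, cleared of ribosomal reads with Bowtie2 2.4.2 and aligned with STAR 2.7.7a to GRCh38. The authors deposited raw counts of uniquely mapping fragments per gene of Ensembl release 99, and FPKM values, which scale counts by gene length and library total. Unique counting lowers genes with near-identical copies, and the strand setting of the counting is not given in the sources used here. Gene positions are from GENCODE 44.

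Counts of the 13966 genes with a mean of at least 1 FPKM in either group were fitted with edgeR 4.0.16 (TMM, quasi-likelihood test, no covariate). The study's methods name DESeq2, while a supplementary caption names a likelihood ratio test in edgeR. Here p-values were adjusted by Benjamini-Hochberg over all tested genes. The alternatives were DESeq2 1.42.0, 2 other scalings, 2 other filters, a replicate block, leaving out each library, and limma 3.58.1 on log2(FPKM + 1) and log2(FPKM + 0.1). The fitting code was tested on simulated data. All members and, of the surrounding lists, at most the 3 smallest p-values per direction were named. LBR, VPS51, FEN1 and the ratio pairs were chosen after their values were seen. The members and lists were chosen with earlier results of these data known. Of the cell type marker lists, 1 is not reported here.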

Additional observations from a re-analysis of the deposited data

How the results depend on the processing

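Of the 15 genes past the test, 7 (HMGCS1, TM7SF2, SC5D, INSIG1, STARD4, ACACA and FADS1) passed in all 14 alternatives, and all 15 kept their sign in them. Of the 15 not past it, 12 passed in none. Leaving out 1 library gave 3 to 8 genes higher and 5 to 10 lower, with 3 higher without si-CyCoNP replicate 2 and 5 lower without si-SCR replicate 2. The median of the 30 genes ran from -0.084 to 0.059 on the log2 scale when 1 library was left out, was 0.045 with library totals alone, and was 0.042 and 0.048 with limma on log2(FPKM + 1) and log2(FPKM + 0.1). limma gave 1118 and 1113 genes lower over the whole table in place of 1990, with 1765 and 1753 higher, and both limma fits lost PMVK, FASN, SREBF2 and FADS2. The cause was not tested.

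Signs that turned belonged to genes with estimates near 0. With library totals alone MVK was 0.024, CYP51A1 0.066, MSMO1 0.013 and ELOVL6 0.0078. With limma and a pseudocount of 1 they were 0.020, 0.063, 0.014 and 0.0072, and with 0.1 they were 0.022, 0.077, 0.014 and 0.0075. SCD was -0.0055 with DESeq2, -0.0055 with DESeq2 size factors in edgeR and -0.00038 with edgeR's default filter, and CYP51A1 was 0.0032 with no filter. Across the fits that left out 1 library, MVK ran from -0.13 to 0.050, CYP51A1 ran from -0.18 to 0.18, MSMO1 ran from -0.16 to 0.0034, DHCR7 ran from -0.079 to 0.16, SCD ran from -0.089 to 0.069, ELOVL6 ran from -0.11 to 0.0071, LSS ran from -0.021 to 0.11 and HSD17B7 ran from -0.011 to 0.21.

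The replicate block, with replicate number as a term, gave 7 of the 30 genes higher and 10 lower, adding FDPS (adjusted p = 0.0116) and ACAT2 (0.0339), and turned CYP51A1 to 0.0040; over all genes it gave 2403 higher and 2368 lower. Libraries with the same number had correlations of deviations of 0.0907, 0.0727 and 0.108, and each correlated best with its own number, which is a hint from the data only, so the libraries were not treated as paired. With 17 to 5990 counts per gene and library, standard errors were 0.079 to 0.240 on the log2 scale. A difference had to be well beyond its standard error to be called at this depth. In the fit without the block, FDPS at 0.23 (SE 0.102, edgeR adjusted p = 0.0899) did not pass.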

Other observations

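The lists on the use of lipids complete the account of the genes around the pathway. In fatty acid activation 2 of 4 tested genes rose and 0 fell (50% past the test, against 28.4% of all tested genes). ACSL4, which prefers arachidonate, rose from 12.8 ± 0.307 to 19.8 ± 0.723 FPKM (log2 fold change 0.56, edgeR adjusted p = 2.47e-05), and SLC27A4, a fatty acid transporter with acyl-CoA synthetase activity, rose from 11.8 ± 0.0914 to 16.2 ± 0.656 FPKM (0.38). In cholesterol export 1 of 5 tested genes rose and 1 fell (40% past the test, against 28.4% of all tested genes). The liver X receptor gene NR1H2 rose (0.47), and ABCG1, a sterol exporter and a known target of that receptor, fell at a low level with libraries that overlapped (1.52 ± 0.668 to 0.830 ± 0.367 FPKM, log2 fold change -0.93, edgeR adjusted p = 0.0344).

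All 9 tested genes of lipid storage and ester turnover had negative estimates, with a median log2 fold change of -0.44, where 6901 of all 13966 tested genes were negative. Of the 9, 2 passed (22.2%), a smaller share than the 28.4% of all tested genes. PLIN2, a coat protein of lipid droplets, fell from 4.62 ± 0.295 to 2.83 ± 0.358 FPKM (-0.77, edgeR adjusted p = 0.00103), and PNPLA2, the main triglyceride lipase, fell from 3.01 ± 0.209 to 1.83 ± 0.259 FPKM (-0.78, edgeR adjusted p = 0.0113). Of 16 genes of fatty acid oxidation 1 rose and 4 fell, and the share past the test (31.2%) was near that of all tested genes (28.4%). CPT1A, which admits long chains to mitochondria, fell from 26.3 ± 1.45 to 16.1 ± 0.486 FPKM (-0.78, edgeR adjusted p = 7.03e-08). ACADS, the short-chain dehydrogenase, and ACAA2, a thiolase, also fell (-1.11 and -0.49), while ACADVL, the dehydrogenase for very long chains, rose (0.29).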
